A study of Mus musculus with 8 samples.

Results

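Small nucleolar RNAs (snoRNAs), which guide chemical modification and processing of ribosomal RNA, are mostly cut out of the introns of longer host transcripts. Some hosts encode proteins, such as ribosomal proteins. Others, among them Gas5, Zfas1 and the small nucleolar RNA host genes (Snhg), are spliced and exported but carry only short reading frames, and several are textbook substrates of nonsense-mediated decay, a surveillance pathway in which a ribosome that stops well upstream of an exon junction marks the transcript for destruction. As background, spliced levels of such hosts are known to rise when translation is blocked. The 10 genes described here are Gas5, Snhg1, Snhg3, Snhg5, Snhg6, Snhg8, Snhg12, Snhg15, Zfas1 and Epb41l4aos, chosen by name as non-coding snoRNA hosts of this kind and found by Ensembl identifier among 55536 counted genes.

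Their levels were measured by mRNA sequencing in mouse CD8+ T cells treated with GC7 or with its vehicle (Mock), 4 libraries each. The donors, 5 to 12 weeks old, were C57BL/6 mice that carried the OT-I T cell receptor transgene on a Rag1-deficient background, so that all groups shared this genotype and nearly all lymph node T cells recognised 1 peptide, SIINFEKL. Cells of both groups were activated with 100 nM of this peptide for 2 days, washed, and grown for 2 days in 20 ng/mL IL-2 with either 10 µM GC7 or the same volume of its vehicle, 10 mM acetic acid. GC7 inhibits deoxyhypusine synthase, encoded by Dhps, which together with the hydroxylase encoded by Dohh forms hypusine on the translation elongation factor eIF5a. The study proposes that GC7 also has effects that do not depend on eIF5a. Which effect lies behind a change with GC7 was not tested. The study calls the 4 libraries of a group biological replicates, the labels do not tie them to individual mice, and translation itself was not measured in these libraries.

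The libraries held 17528776 to 25284730 counts, and totals did not separate the groups (two-sided exact permutation test, p = 0.429, where the smallest p that 4 against 4 allows is 0.0286). All 7 CD8 T cell markers were detected, with summed levels of 6090 to 7260 CPM (counts scaled to library size) in Mock and 4040 to 5620 CPM in GC7 libraries. Most of this sum was Gzmb, a granzyme (4410 ± 403 and 2890 ± 686 CPM, SD, n = 4), while Cd8a, the lineage marker, was higher with GC7 (699 ± 27.5 and 972 ± 30.3 CPM, edgeR FDR = 3.43e-05). Cd8a was the 1 marker of the 7 that rose. At an FDR under 0.01, 4 were lower (log2 fold changes: Gzmb -0.61, Prf1 -1.46, Trac -0.38 and Cd3e -0.23). Cd3d (-0.27) and Cd8b1 (-0.18) did not pass that threshold. Summed markers of B cells (4.61 to 10.1 CPM), myeloid cells (5.7 to 11.0 CPM), CD4 T cells (at most 1.39 CPM) and erythroid cells (at most 0.999 CPM) were low in all 8 libraries, whereas stromal and endothelial markers lay at 51.9 to 56.6 CPM in Mock and 30.3 to 32.3 CPM in GC7 libraries. The last difference came mostly from Pecam1, while Cdh5 had 0 counts throughout, and its part in the results on the hosts was not tested. In such bulk RNA, fewer cells of a type and less RNA per cell cannot be told apart. Mock replicate 2 and GC7 replicate 3 stood apart from the other libraries of their groups. Mock replicate 2 held the highest Mock value of 38.7% of the 11189 tested genes and the lowest of 39.7%, and GC7 replicate 3 held the highest GC7 value of 36.1% and the lowest of 35.1%.

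The hosts differ widely in how much cargo they carry. The annotation places 34 snoRNA genes inside the 10 hosts, with 10 in Gas5, 8 in Snhg1, 5 in Snhg12, 3 in Zfas1, 2 each in Snhg3 and Snhg5, and 1 each in Snhg6, Snhg8, Snhg15 and Epb41l4aos. Snord80 in Gas5 and Snora16a in Snhg12 are each entered more than once at overlapping positions. These counts are therefore of annotated genes and not of distinct snoRNAs. Box C/D snoRNAs guide 2′-O-methylation and keep their ends paired around box C and box D. Box H/ACA snoRNAs guide pseudouridylation and end shortly after the letters ACA. Below, 4 cargo sequences are shown as examples of both families, with the box letters that were found in capitals (TGATGA for box C and CTGA for box D, or ACA), written as DNA from GENCODE M21 transcripts of the GRCm38 build. They lie at chr1:161038082-161038158 (plus strand, in Gas5), chr9:88521529-88521600 (minus strand, in Snhg5), chr1:9942463-9942549 (minus strand, in Snhg6) and chr3:123507937-123508066 (minus strand, in Snhg8).
Snord47: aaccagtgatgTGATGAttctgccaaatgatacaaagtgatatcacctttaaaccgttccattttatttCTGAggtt
Snord50a: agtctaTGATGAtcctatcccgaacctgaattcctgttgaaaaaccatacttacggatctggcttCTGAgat
Snord87: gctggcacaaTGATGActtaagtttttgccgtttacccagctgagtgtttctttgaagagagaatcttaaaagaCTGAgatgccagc
Snora24: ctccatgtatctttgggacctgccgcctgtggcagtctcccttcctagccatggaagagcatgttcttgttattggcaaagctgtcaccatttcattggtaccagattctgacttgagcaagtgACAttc

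The spliced hosts themselves share a layout that their choice by name, as hosts of the kind described above, made likely. For each of the 10 hosts, the annotated transcript with the most exons and no snoRNA left in its exons was read from its first ATG to the first stop codon in frame. These first frames ran from 1 codon in Snhg8 to 54 codons in Snhg12, and in all 10 transcripts at least 1 exon junction lay 50 or more bases after the stop. Taking the transcript with the most exons favours such junctions. Gas5, Snhg1, Snhg3, Snhg5, Snhg6 and Snhg15 also have spliced transcripts, free of snoRNA sequence, without one. In the transcripts chosen, Gas5 had 7 such junctions, Snhg1 5, Zfas1 4, and Snhg12 and Snhg15 3 each. Those of Snhg5, Snhg8 and Epb41l4aos had 2 each, and those of Snhg3 and Snhg6 1 each. Counted over their spliced transcripts that are free of snoRNA sequence and hold a first frame closed by a stop, 27 of 35 (77.1%) had such a junction, beside 487 of 619 (78.7%) for tested long non-coding genes that hold no snoRNA, so this layout was not particular to the hosts. The 5′ ends of 6 hosts up to the end of the first frame are shown because they carry that frame, which stands in capitals from its ATG to its stop. The Gas5 transcript spans chr1:161035163-161038537 and the Snhg12 transcript chr4:132308678-132311024 (both plus strand), and those of Snhg15, Snhg8, Snhg6 and Snhg5 span the whole gene as located with its values below (all minus strand, GRCm38).
Gas5: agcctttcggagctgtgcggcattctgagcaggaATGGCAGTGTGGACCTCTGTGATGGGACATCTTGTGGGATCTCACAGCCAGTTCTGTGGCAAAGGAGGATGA
Snhg12: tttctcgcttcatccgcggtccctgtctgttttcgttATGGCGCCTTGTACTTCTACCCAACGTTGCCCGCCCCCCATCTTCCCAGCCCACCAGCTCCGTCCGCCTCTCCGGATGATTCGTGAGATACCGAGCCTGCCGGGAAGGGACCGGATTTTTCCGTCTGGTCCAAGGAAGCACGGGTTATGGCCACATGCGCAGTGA
Snhg15: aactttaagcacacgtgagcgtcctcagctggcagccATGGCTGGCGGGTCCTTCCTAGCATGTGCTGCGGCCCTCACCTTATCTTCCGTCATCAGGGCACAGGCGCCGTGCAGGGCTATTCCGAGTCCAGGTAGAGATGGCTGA
Snhg8: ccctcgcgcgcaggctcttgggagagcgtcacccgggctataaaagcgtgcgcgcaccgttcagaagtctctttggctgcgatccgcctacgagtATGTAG
Snhg6: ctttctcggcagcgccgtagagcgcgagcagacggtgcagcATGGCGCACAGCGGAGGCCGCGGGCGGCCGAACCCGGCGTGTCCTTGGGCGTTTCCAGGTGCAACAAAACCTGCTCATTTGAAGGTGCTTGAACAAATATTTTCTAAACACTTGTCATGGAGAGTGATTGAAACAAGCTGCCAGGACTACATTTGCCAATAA
Snhg5: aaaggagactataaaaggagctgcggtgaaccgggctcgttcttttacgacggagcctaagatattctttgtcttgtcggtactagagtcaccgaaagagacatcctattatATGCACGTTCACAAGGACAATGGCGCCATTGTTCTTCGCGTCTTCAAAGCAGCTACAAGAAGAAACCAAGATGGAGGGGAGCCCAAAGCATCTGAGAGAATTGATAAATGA

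**Figure D1:**
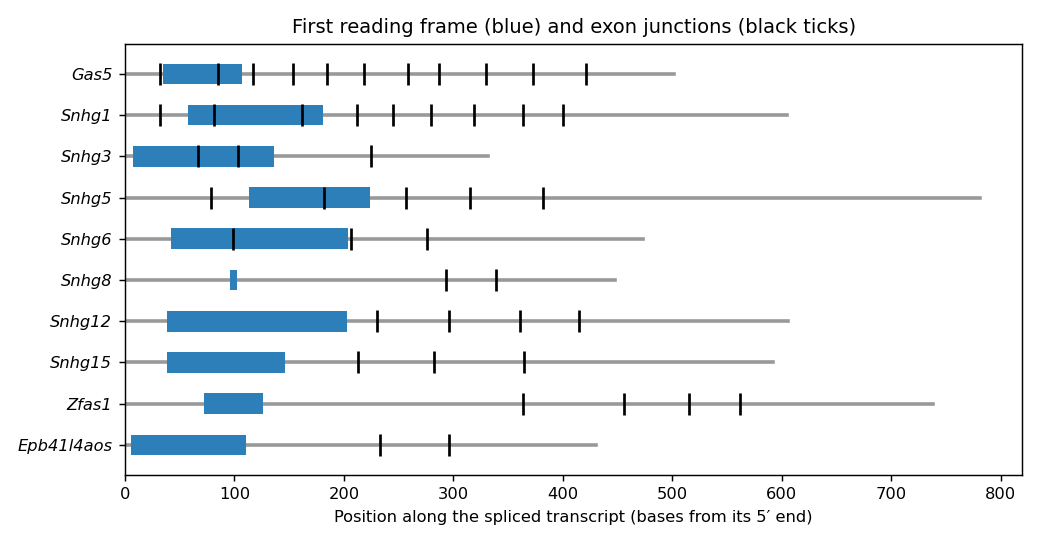
Position in bases from the 5′ end (x axis) of the first reading frame (blue) and of each exon junction (black ticks) in 1 spliced transcript per host, with the transcript as a grey line. In every transcript shown at least 1 junction lies 50 or more bases to the right of the frame, and that of Gas5 has 7.

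Transcripts that begin with a run of pyrimidines form another class, known from ribosomal protein mRNAs, whose translation follows growth signals. Of 83 annotated transcripts of the 10 hosts, 21 (25.3%) began with at least 4 consecutive C or T, beside 6.64% of the transcripts of all tested genes and 7.75% of those of long non-coding genes without a snoRNA. The printed Snhg6, Snhg8 and Snhg12 sequences begin in this way. The letters CTTTC, searched on the transcript strand in the first 30 bases, occurred in 12 of the 83 transcripts (14.5%) and in 2.99% of those of all tested genes. Both searches were chosen after the sequences had been seen, annotated starts are not measured starts, and transcripts of 1 gene share sequence.

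Whether the hosts changed with GC7 was asked with edgeR's quasi-likelihood test on all genes above 3 CPM in at least 4 libraries, and a gene was called at a false discovery rate (FDR, Benjamini-Hochberg over 11189 genes) under 0.01. Of the 10 hosts, 9 passed the expression filter, and Snhg3 did not. Of these 9, 8 were higher with GC7, none was lower, and Snhg5 was not called. In 8 of the 9, every GC7 library lay above every Mock library. Over all tested genes the same call was made for 23.0% as higher and 23.5% as lower, and the libraries separated in that direction for 28.1%. By the stricter rule, which adds a rise past 2-fold, 3 hosts were called (Gas5, Snhg12 and Snhg15), beside 3.17% of all tested genes. The median log2 fold change was 0.78 over the 9 hosts and 0.02 over all tested genes. Scaled by library totals instead, the all-gene median was 0.11 and the share of calls that were higher was 61.9% in place of 49.5%, and the 8 host calls stood with a host median of 0.88.

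**Figure D2:**
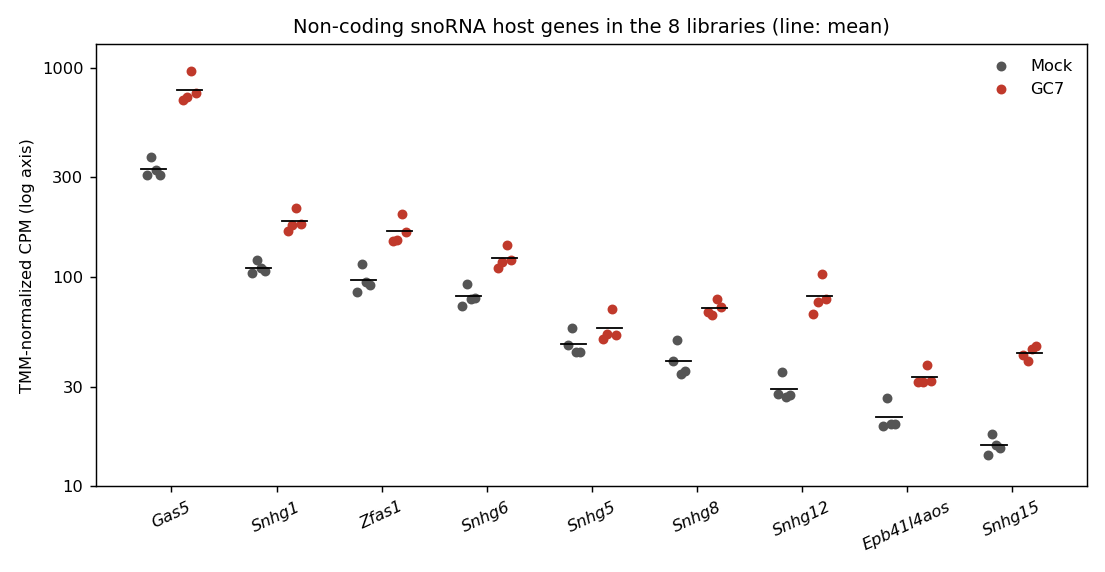
Normalized CPM (y axis, log scale) of the 9 hosts that passed the filter in each Mock (grey) and GC7 (red) library, with a line at each mean. The groups are separate for every host shown except Snhg5, and the top point is Mock replicate 2 in all 9 hosts and GC7 replicate 3 in 8.

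Gas5, the growth arrest-specific transcript that accumulates in arrested cells, held the most counts of the 10 hosts and has 10 annotated snoRNA genes, with Snord80 entered more than once (chr1:161034422-161038539, plus strand). In Mock replicates 1 to 4 it stood at 308, 373, 325 and 307 CPM, in units normalized by trimmed mean of M values (TMM), which are used below. The GC7 replicates stood at 704, 723, 962 and 758 CPM. The lowest GC7 value was thus far above the highest Mock value. The means were 328 ± 31.0 and 787 ± 119 CPM (SD, n = 4), a log2 fold change of 1.26 (SE 0.105) or 2.40-fold (edgeR FDR = 7.82e-07). Only 1.83% of tested genes had a larger log2 fold change.

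Snhg12 (chr4:132308623-132311024, plus strand), host of mostly H/ACA snoRNAs, rose from a lower level. Its Mock values were 27.6, 35.2, 26.7 and 27.3 CPM, and its GC7 values 66.7, 75.8, 104 and 78.4 CPM. Every GC7 library exceeded the highest Mock library, and the most distant value on each side was that of Mock replicate 2 and GC7 replicate 3. Its log2 fold change was 1.48 (SE 0.134), or 2.78-fold (edgeR FDR = 1.68e-06), with 1.29% of tested genes above it.

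Snhg15 (chr11:6525591-6528760, minus strand), which carries Snora9, was the third host past 2-fold. Its levels were 14.1, 17.8, 15.8 and 15.3 CPM in Mock and 42.3, 39.7, 45.2 and 46.9 CPM in GC7 libraries. This was the 1 host tested whose highest GC7 value was not in replicate 3. The log2 fold change was 1.47 (SE 0.0870), or 2.76-fold (edgeR FDR = 4.43e-08).

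The other 5 called hosts rose by less than 2-fold. Snhg8 (chr3:123507552-123508404, minus strand), host of Snora24, measured 39.6, 49.9, 34.3 and 35.5 CPM in Mock and 68.5, 66.2, 78.2 and 72.0 CPM in GC7 libraries, or 0.84 as a log2 fold change (SE 0.109, edgeR FDR = 3.57e-05). Zfas1 (chr2:167062934-167065862, plus strand), an antisense transcript that starts beside Znfx1 and hosts Snord12 and its relatives, measured 85.2, 115, 94.6 and 91.8 CPM in Mock and 149, 151, 201 and 165 CPM in GC7 libraries, with a log2 fold change of 0.78 (SE 0.110, FDR = 6.69e-05). Both hosts thus had separate groups.

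Snhg1 (chr19:8723475-8726443, plus strand), the host of Snord22 and 7 other snoRNAs, lay at 105, 121, 110 and 107 CPM in Mock and 167, 177, 214 and 180 CPM in GC7 libraries. Its log2 fold change was 0.74 (SE 0.0816, edgeR FDR = 9.23e-06), the smallest standard error of the 9. Snhg6 (chr1:9941959-9944118, minus strand), host of Snord87, had values of 72.6, 92.3, 78.6 and 79.8 CPM in Mock and 111, 118, 143 and 121 CPM in GC7 libraries, or 0.61 as a log2 fold change (SE 0.0910, FDR = 1.10e-04). Epb41l4aos (chromosome 18, plus strand), an antisense transcript with 1 annotated snoRNA, had values of 19.4, 26.6, 19.9 and 19.8 CPM in Mock and 31.5, 31.7, 38.2 and 31.8 CPM in GC7 libraries, with a log2 fold change of 0.63 (SE 0.109, FDR = 3.45e-04). In each of these 3 the lowest GC7 library was above the highest Mock library, which was Mock replicate 2.

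Snhg5 (chr9:88521050-88522929, minus strand), host of Snord50a and Snord50b, was the 1 tested host that was not called. It measured 47.3, 57.0, 44.0 and 43.7 CPM in Mock and 50.6, 53.3, 70.4 and 53.1 CPM in GC7 libraries, so that Mock replicate 2 exceeded 3 of the 4 GC7 libraries. The log2 fold change was 0.24 (SE 0.114, 95% interval -0.01 to 0.49, edgeR FDR = 0.0879). Without Mock replicate 2 and GC7 replicate 3, an alternative added after the values were seen, the estimate was 0.22 and the FDR 0.00243, so its call depended on these libraries. Its log2 fold change was exceeded by that of 30.1% of tested genes.

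Snhg3 (chr4:132348014-132353686, minus strand), a host of the Snora73 family that guides ribosomal RNA processing, was near absent from the counts. It had 1, 3, 2 and 1 counts in Mock and 3, 6, 1 and 3 counts in GC7 libraries, which is at or near a floor of 3 counts and allows no fold. Of its 986 exon bases, only 135 are free of other annotated genes, and 135 bases are shared with Rcc1 on the same strand. How reads that match 2 genes were handled is not given in the sources used here, so the low count cannot be read as the level of the transcript. Rcc1, which encodes a regulator of Ran, was higher with GC7, at 72.6 ± 2.98 against 98.0 ± 9.37 CPM (SD, n = 4; log2 fold change 0.43, edgeR FDR = 3.27e-04). Gm17300, on the opposite strand over 705 of the same bases, had 29 to 37 counts in Mock and 33 to 50 with GC7 and did not pass the filter.

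**Figure D3:**
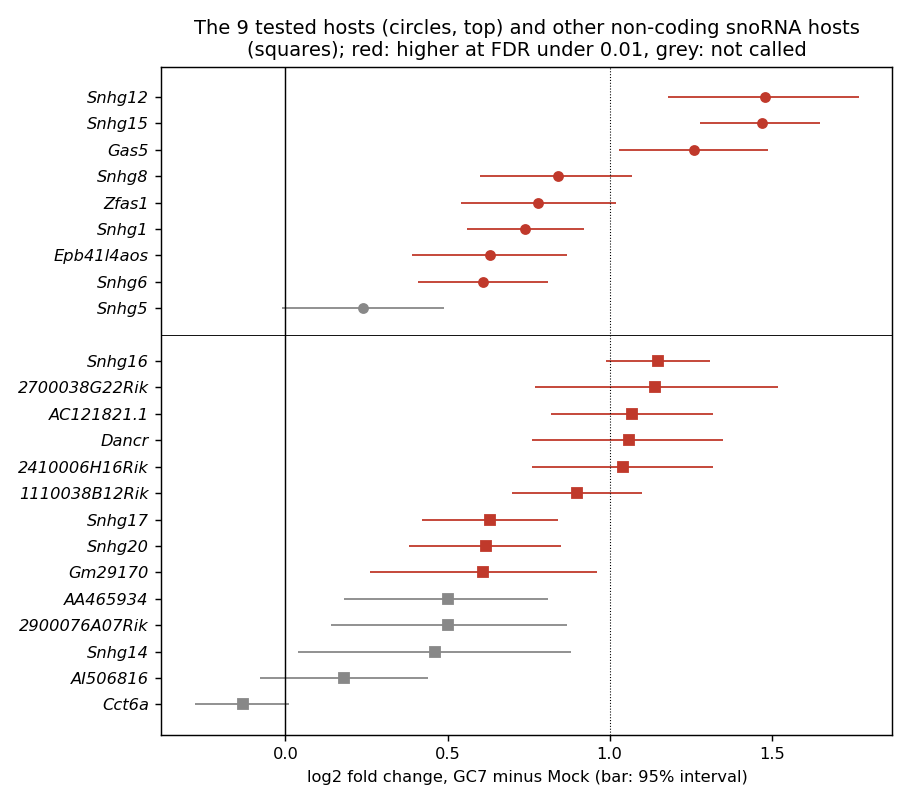
Log2 fold change (x axis, GC7 minus Mock, bars: 95% interval) of the 9 hosts (circles) and of the 14 other tested non-coding genes that hold a snoRNA (squares), with called genes in red and a dotted line at 2-fold. Snhg12, Snhg15 and Gas5 lie to the right of the dotted line, and Snhg5 is the 1 grey circle.

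Summed over the 10 hosts, the share of library counts was 0.0703%, 0.0830%, 0.0736% and 0.0709% in Mock replicates 1 to 4 and 0.144%, 0.149%, 0.191% and 0.155% in the GC7 replicates. The means were 0.0745 ± 0.00588% and 0.160 ± 0.0213% (SD, n = 4). The widest exact 95% binomial interval ran from 0.189% to 0.193%, in GC7 replicate 3, and it covers counting error only. Gas5 made up 42.0 to 43.4% of the host counts in Mock and 50.3 to 51.8% with GC7, so the mixture of hosts shifted as well as its total. Mock replicate 2 held the largest Mock share and GC7 replicate 3 the largest GC7 share, and without GC7 replicate 3 the GC7 mean was 0.149%.

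**Figure D4:**
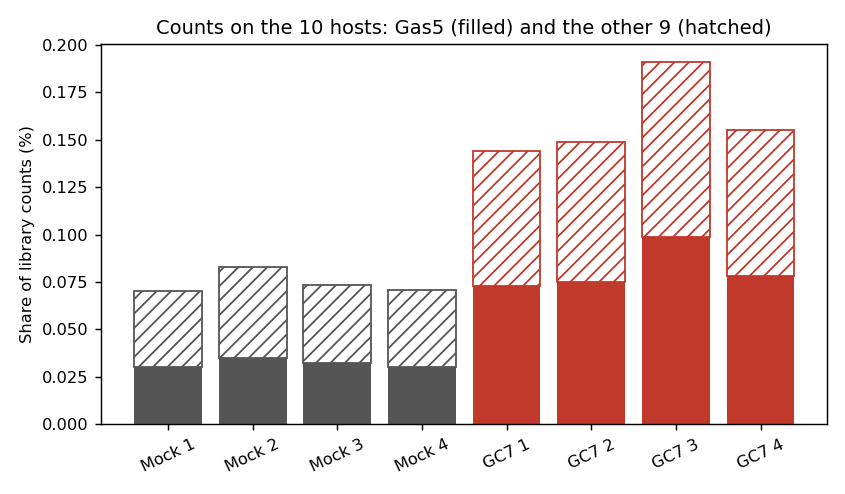
Percent of each library's counts (y axis) on the 10 hosts, split into Gas5 (filled) and the other 9 (hatched), for Mock (grey) and GC7 (red) libraries. All GC7 bars, from 0.144% to 0.191%, are above all Mock bars, from 0.0703% to 0.0830%.

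Levels were compared between hosts per kilobase of exon sequence. In Mock libraries, Gas5 stood highest at 87.3 ± 8.26 CPM per kb, followed by Snhg6 (70.5 ± 7.21), Epb41l4aos (49.9 ± 7.95), Snhg8 (46.7 ± 8.29), Snhg1 (37.2 ± 2.43), Zfas1 (33.0 ± 4.38), Snhg5 (27.8 ± 3.58), Snhg12 (12.2 ± 1.67) and Snhg15 (11.6 ± 1.15), all in CPM per kb (SD, n = 4). Neighbours such as Epb41l4aos and Snhg8, Snhg1 and Zfas1, or Snhg12 and Snhg15 overlapped in their library ranges. In GC7 libraries Gas5 stood at 209 ± 31.6 CPM per kb, and Snhg12 (33.9 ± 6.75) and Snhg15 (32.0 ± 2.35) lay beside Snhg5 (32.9 ± 5.29) in place of below it. This order in GC7 cells depended on the length used, since per kilobase of the longest transcript Snhg15 stood at 64.5 ± 4.73, Snhg12 at 52.9 ± 10.5 and Snhg5 at 46.6 ± 7.49 CPM per kb, with every Snhg15 value above the highest Snhg5 value. The exon length joins all annotated transcripts, retained introns included, so spliced and intron-retaining forms cannot be told apart in these counts.

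The cargo snoRNAs were out of reach of these libraries. Of the 34 snoRNA genes, 32 had 0 counts in every library. Of the 34, 31 overlap an exon of some host transcript, where a read would match both genes. How such reads were handled is not given in the sources used here, so a count of 0 sets no upper limit for them. The 2 with counts lie in introns of every transcript, and so does Snora73b in Snhg3, which had 0 counts in every library. Snord87 in Snhg6 had 4, 6, 3 and 3 counts in Mock and 8, 2, 6 and 11 in GC7 libraries, and Gm23639 in Epb41l4aos had 4, 8, 2 and 6 in Mock and 11, 8, 10 and 10 in GC7 libraries, too few to pass the filter. The amount of mature snoRNA was therefore not measured beside the host transcripts.

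Genes that share a start region with a host were examined next, since the strand setting of the counting is not given in the sources used here. Slc3a2, the heavy chain of amino acid transporters, starts 106 bases from Snhg1 on the opposite strand and stood at 293 ± 10.4 CPM in Mock and 310 ± 38.7 CPM in GC7 libraries (n = 4; log2 fold change 0.08, 95% interval -0.10 to 0.27, edgeR FDR = 0.414), where Snhg1 rose by 0.74 on the log2 scale. Znfx1, a helicase gene whose exons overlap those of Zfas1 by 82 bases, stood at 21.1 ± 1.53 and 18.6 ± 2.15 CPM (log2 fold change -0.18, 95% interval -0.39 to 0.03, FDR = 0.119), where Zfas1 rose by 0.78. Their log2 fold changes thus differed in size or sign from those of their hosts, though that difference was not tested. Zbtb37, a zinc finger gene that starts 427 bases from Gas5, stood at 22.6, 10.3, 21.4 and 22.0 CPM in Mock and 31.5, 25.9, 30.7 and 25.4 CPM in GC7 libraries, which was not called (log2 fold change 0.58, FDR = 0.0225). Mcmdc2, which overlaps Snhg6 exons, had at most 5 counts in any library.

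Other non-coding hosts that passed the filter were also mostly higher. Of 13 further hosts listed by name, 11 were found in the annotation and 5 passed the filter. Of these 5, 4 were higher, and the list median log2 fold change was 0.63. Over all tested genes, 23.0% were higher and the median was 0.02. Snhg16 rose from 14.7 ± 0.749 to 32.6 ± 1.43 CPM (SD, n = 4; log2 fold change 1.15, SE 0.0720, edgeR FDR = 6.78e-08). Dancr, a transcript first described as a brake on differentiation, had a log2 fold change of 1.06 (3.67 to 4.86 CPM in Mock, 7.16 to 9.31 CPM in GC7), Snhg17 of 0.63 and Snhg20 of 0.62. Snhg14, the long transcript of the imprinted Prader-Willi region, had a log2 fold change of 0.46 and was not called (FDR = 0.0544). Snhg9, Snhg10, Snhg11, Snhg18, Rian and Meg3 did not pass the filter, and Rian had 0 to 1 counts in Mock and 4 to 8 in GC7 libraries.

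Read from the annotation instead, 14 tested non-coding genes outside the 10 held a snoRNA, and 9 of them were higher, none lower, with a median log2 fold change of 0.62. The 14 include all 5 hosts tested by name above, and 4 of those are among the 9. Of these 9, Gm29170 passed the filter only through the GC7 libraries, which favours a rise, whereas none of the 10 hosts or of the 5 tested by name did. Among those without a familiar name, 2700038G22Rik (1.14), AC121821.1 (1.07), 2410006H16Rik (1.04) and 1110038B12Rik (0.90) were higher by these log2 fold changes, whereas AI506816 (0.18) and Cct6a (-0.13), which the annotation files as a processed transcript, were not called. Long non-coding genes that hold no snoRNA numbered 322, of which 81 (25.2%) were higher and 43 lower, with a median of 0.15. That share was near the 23.0% over all tested genes. The difference between these classes is given as counts and was not tested.

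Among hosts that encode proteins, rises were also frequent but with a lower median. Of 204 tested protein-coding genes that hold a snoRNA, 83 (40.7%) were higher and 20 lower, with a median log2 fold change of 0.23. The 174 of them that are not cytosolic ribosomal protein genes had 34.5% higher and a median of 0.18. Those with 2 or more snoRNAs (37 of 58 higher, 1 lower, median 0.43) lay above those with 1 (46 of 146 higher, 19 lower, median 0.17), and 9988 protein-coding genes without a snoRNA had 22.2% higher and a median of 0.00. From the list of 32 well-known protein-coding hosts, 24 were higher and none lower, with a median of 0.45 and no change past 2-fold. Eef1b2, a translation elongation factor subunit, had the largest log2 fold change (0.67), followed by the ribosomal protein gene Rpl30 (0.65). Within the cytosolic ribosomal protein genes, hosts and other genes had like medians, and 23 of 30 hosts (median 0.47) and 39 of 58 genes without one (median 0.43) were higher and 3 of the latter were lower. None of these differences between classes was tested.

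**Figure D5:**
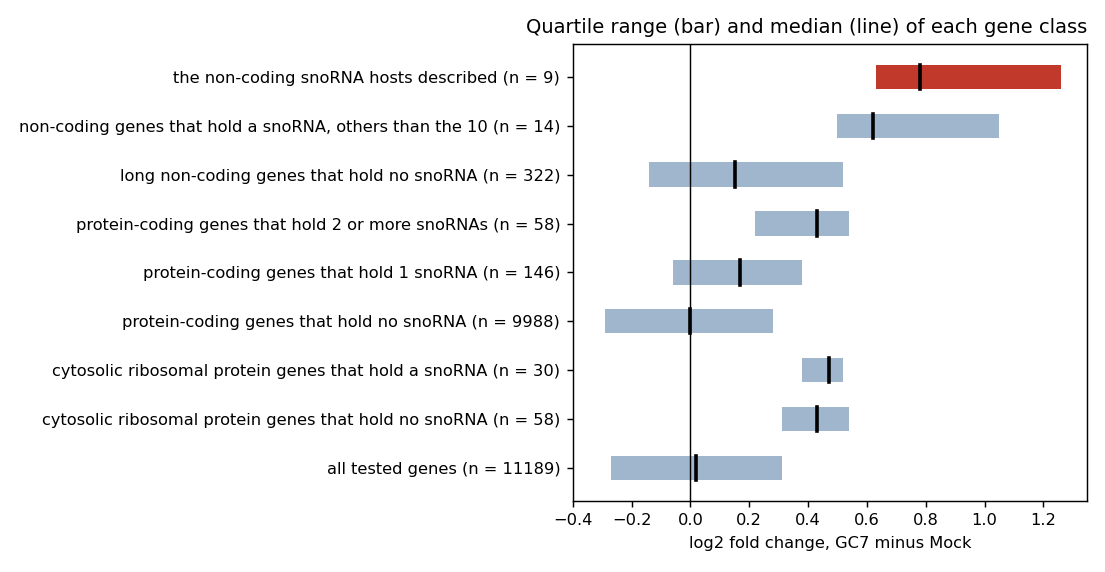
Quartile range (bar) and median (black line) of the log2 fold change (x axis, GC7 minus Mock) in each gene class, with the number of tested genes in brackets. Medians were 0.78 in the 10-gene group, of which 9 were tested, and 0.62 in other non-coding hosts. They were 0.43 in protein-coding genes with 2 or more snoRNAs and 0.15 in long non-coding genes that hold none. Cytosolic ribosomal protein genes had medians of 0.47 with a snoRNA and 0.43 without one.

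Decay of such hosts depends on the nonsense-mediated decay factors, whose own mRNAs are in part substrates of the pathway. Of 18 factors, 6 were higher, 1 was lower and 11 were not called, with a median log2 fold change of 0.17. That is 33.3% higher, beside 23.0% over all tested genes. The largest rises were those of Dcp2, the decapping enzyme (0.72), Upf3b, an adaptor to the exon junction complex (0.59), and Smg5, which recruits decay enzymes to Upf1 (0.56), and Smg9 fell by 0.28. Upf1, the central helicase, stood at 109 ± 3.35 CPM in Mock and 116 ± 9.05 CPM in GC7 libraries (n = 4, edgeR FDR = 0.233). In the exon junction complex, 2 of 7 genes were higher (Magohb 0.39, Casc3 0.36) and 1 was lower (Pym1 -0.70), a factor that strips the complex from translated mRNA. For the 7 genes of the complex, the share of 28.6% higher was near that over all tested genes.

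Coding transcripts known to be sensitive to the same pathway did not move as 1 group. Of 13 listed genes, 7 of which are also decay factors, 6 (46.2%) were higher and 1 lower, with a median log2 fold change of 0.15. Over all tested genes, 23.0% were higher and 23.5% lower. Atf3, a stress-induced transcription factor, rose from 24.4 ± 0.874 to 49.3 ± 5.85 CPM (SD, n = 4; log2 fold change 1.02, edgeR FDR = 1.05e-06), and Ern1, a sensor of unfolded proteins, was higher by 0.64. Gadd45b, a growth arrest and DNA damage gene, fell by 0.91 on the log2 scale. Gadd45a (0.05), Atf4 (-0.11) and Ddit3 (0.09) had log2 fold changes that did not pass the test.

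Proteins that package snoRNAs were mixed as well. Of 17 genes for snoRNP proteins and their assembly factors, 7 (41.2%) were higher and 2 lower, with a median log2 fold change of 0.31. Over all tested genes, 23.0% were higher and 23.5% lower. Nop56, a core C/D protein whose gene itself hosts snoRNAs (0.56), Nolc1, a nucleolar chaperone (0.55), and Nop10, a core H/ACA protein (0.53), had the largest rises. Pih1d1 (-0.66) and Ruvbl2 (-0.53), both of the R2TP chaperone complex that assembles snoRNPs, were lower. Fbl, the C/D methyltransferase, stood at 206 ± 21.9 and 199 ± 20.3 CPM (log2 fold change -0.05, FDR = 0.653).

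Other regulatory long non-coding RNAs that hold no snoRNA were mostly higher and included large changes in both directions. Of 13 listed, 10 passed the filter, 6 (60.0%) were higher and 1 was lower, with a median log2 fold change of 0.55. That median was near the 0.62 of the other non-coding genes that hold a snoRNA. Over all 322 tested long non-coding genes without a snoRNA, 25.2% were higher, with a median of 0.15, beside 23.0% of all tested genes. These differences were not tested. Pvt1, the neighbour of Myc, rose by 1.66 on the log2 scale and Mir155hg, the precursor of miR-155, by 1.37. Mir155hg had 41 to 56 counts in Mock and 115 to 143 in GC7 cells and passed the filter only through the GC7 libraries, so that a rise was favoured by its selection. Neat1, the scaffold of paraspeckles, had a log2 fold change of -1.14, and Malat1 stood at 423 ± 101 CPM in Mock and 476 ± 82.0 CPM in GC7 libraries (n = 4, edgeR FDR = 0.397).

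Messenger RNAs of the pathway that GC7 targets were compared last. Eif5a stood at 1190, 1360, 1130 and 1180 CPM in Mock and 1190, 1210, 959 and 1200 CPM in GC7 libraries (log2 fold change -0.09, edgeR FDR = 0.395). Dhps was lower, at 24.6 ± 1.77 against 20.1 ± 1.09 CPM (SD, n = 4; log2 fold change -0.29, FDR = 0.00638). Dohh had a log2 fold change of -0.40 and was not called (FDR = 0.0218). GC7 acts on the enzyme and not on its mRNA, so these values do not check the treatment.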

How the data were processed

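Per the labels and the methods, the authors trimmed reads with cutadapt, mapped them to GRCm38 (STAR) and obtained gene-level counts (featureCounts). The deposited files hold raw counts for each of the 8 libraries, neither normalized nor pooled, and their gene identifiers match GENCODE M21. The strand setting and the handling of reads that match several genes are not given in the sources used here.

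Groups came from the sample titles. Genes above 3 CPM in at least 4 libraries (11189) were fitted in edgeR 4.0.16 (R 4.3.3), with TMM factors, group as the only term and the quasi-likelihood F test, and were called at a Benjamini-Hochberg FDR under 0.01. Intervals are t intervals with the degrees of freedom of that fit, and p measures the spread between these libraries only. On data simulated for the 11189 genes of this comparison, 200 of 200 changed genes and 4 others were called. Alternatives were RLE factors, library totals, TMM without mitochondrially encoded and ribosomal protein genes, no filter, filterByExpr, DESeq2 (version 1.42.0), limma-voom (limma version 3.58.1), a replicate block, and each library left out. A snoRNA was assigned to a gene that spans it on the same strand.

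The 10 hosts, the gene lists and the rule for named genes (all hosts, detected listed hosts, neighbours, and up to 3 called genes per direction in each other list) were chosen with earlier results of these data known. Same-numbered libraries deviated together in 2 of 4 pairs (r over 0.1), so the numbers were not taken as pairs.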

Additional observations from a re-analysis of the deposited data

Results flagged for a closer look

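In 8 of 64 groups of 4 libraries, 1 library lay far from the other 3, by Dixon's ratio of its gap to the group's whole range (past its 95% critical value, which chance passes in about 1 of 20 groups). Of these groups, 4 were of the hosts. Snhg12 in Mock (ratio 0.894) and Epb41l4aos in Mock (0.931) were far higher in replicate 2, at 35.2 and 26.6 CPM, than in the others. Snhg5 (0.864) and Epb41l4aos (0.955) in GC7 cells were far higher in replicate 3, at 70.4 and 38.2 CPM. The other 4 were 2900076A07Rik in GC7 (0.846, replicate 3 highest at 5.99 CPM), AC121821.1 in GC7 (0.857, replicate 3 lowest at 20.6 CPM), Zbtb37 in Mock (0.902, replicate 2 lowest at 10.3 CPM) and Eif5a in GC7 (0.920, replicate 3 lowest at 959 CPM). Each far library was thus Mock replicate 2 or GC7 replicate 3. Mock replicate 2 was the highest Mock library for 9 of 9 tested hosts, beside 38.7% of all tested genes, and GC7 replicate 3 the highest GC7 library for 8 of 9, beside 36.1%. The cause was not tested.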

How the results depend on the processing

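Over 17 alternatives, 152 of 153 log2 fold changes of the 9 tested hosts kept their direction and their side of the threshold, and 0 reversed. The exception was Snhg5, which was called without Mock replicate 2 and GC7 replicate 3 (0.22, FDR = 0.00243, edgeR) and ranged from 0.12 to 0.34 over all alternatives (FDR 0.00243 to 0.280). Gas5 ranged from 1.15 to 1.36, Snhg12 from 1.33 to 1.58 and Snhg15 from 1.41 to 1.56, so these 3 passed 2-fold under every alternative. With the replicate block, 8 hosts were higher, 0 were lower and 3 passed 2-fold, and 2382 genes in all were higher in place of 2579. Same-numbered libraries correlated at a mean r of 0.0429, other pairs at -0.0204. The count of all tested genes higher past 2-fold was 355, but 773 of 28350 genes with no filter and 605 of 14517 with filterByExpr, where more genes of low count were tested. Leaving out 1 library moved the count of all genes higher between 2096 and 2859 and the GC7 minus Mock difference in the hosts' share of counts between 0.0749 and 0.0906 percentage points (0.0853 with all). Per kilobase of the longest transcript in place of all exons, levels in Mock moved by more than 1 SD of the libraries for 8 of 10 hosts, with Gas5 at 128 CPM per kb, and Snhg8 then stood before Epb41l4aos, Zfas1 before Snhg1, and Snhg15 before Snhg12. Snhg3 and the snoRNAs had too few counts for a fold. Low depth and the unknown handling of reads that match 2 genes cannot be told apart there.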
